A study of Homo sapiens with 4 samples.

Results

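DDX52 knockdown was examined in 22RV1 cells, an androgen-responsive human prostate carcinoma line. A gene was used when it reached 1 TPM in either of the 22RV1 libraries, which kept 14438 of the 60671 gene identifiers listed, 11971 of them protein-coding. TPM is a unit of transcript abundance, the length-corrected share of a library that a gene takes up. The shDDX52 library came from cells that carried 1 short hairpin RNA (shRNA) against DDX52 in a lentiviral pLKO vector, and the shCON library from cells that carried a control hairpin in the same vector. Both were selected with puromycin, and whether clones were picked afterwards is not given in the sources used here. Each condition had 1 library, so no difference below has a replicate check, no p-value was computed, and a difference between these libraries cannot be told apart from a difference between 2 cultures. PC3, a prostate carcinoma line with the androgen-driven KLK2 and KLK3 listed at 0 TPM, was treated in the same way and is used only as context.

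DDX52 is a DEAD-box RNA helicase, the human counterpart of yeast Rok1, a protein that works in the assembly of the small ribosomal subunit in the nucleolus. Loss of ribosome assembly factors is known to release free ribosomal proteins that stabilise p53. Separately, the transcription factor ATF4 drives genes for amino acid synthesis, uptake and tRNA charging when amino acids are short or the endoplasmic reticulum (ER) is under stress, and the sensors ATF6 and IRE1 (ERN1) drive ER chaperones in the unfolded protein response (UPR). Luminal prostate cells make secreted proteins under control of androgens, which places a heavy load on the ER.

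DDX52 was listed at 4.88 TPM with shCON and 1.2 TPM with shDDX52, or 24.6% of the control, a log2 ratio of −1.42. Here and throughout, the log2 ratio is log2((TPM shDDX52 + 1) / (TPM shCON + 1)), so differences of weakly expressed genes come out smaller than they are. All 13 luminal prostate epithelium markers examined reached 1 TPM in both libraries, and their summed level was 1899 TPM in each. The basal markers KRT5 and TP63 were listed at 0 and KRT14 stayed under 1 TPM. None of the 3 endothelial markers reached 1 TPM. Among 4 leukocyte markers CD68 alone did, at 8.82 TPM with shCON and 2.4 TPM with shDDX52, while PTPRC was listed at 0 in both. Of 6 fibroblast markers, 3 reached 1 TPM with shCON and 2 with shDDX52, and their sum was 21.9 and 12.6 TPM. Most of that sum was LUM, at 16.5 and 6.91 TPM. COL1A1 was at 2.81 and 4.77 TPM (0.60), while COL1A2 and COL3A1 stayed under 1 TPM. The libraries came from cultures of a carcinoma cell line, so these markers do not by themselves show that fibroblasts or leukocytes were present. In bulk RNA, fewer cells that express a gene and less of its RNA per cell cannot be told apart.

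Across all genes the median log2 ratio was −0.08, with 58.8% of genes below 0 and 40.9% above. With shDDX52, 413 genes (2.86% of those used) were lower by 2-fold or more and 323 (2.24%) higher by as much. Of the protein-coding genes, 161 (1.34%) and 119 (0.994%) did so. A log2 ratio of −0.5 or less was reached by 11.4% of genes and one of 0.5 or more by 7.02%. The share of genes past 2-fold was 9.78% below a mean of 5 TPM and 1.32% from 100 TPM upward, so a log2 ratio beyond 1 is common among low genes and rare among abundant ones. Among the 6737 protein-coding genes that reached 10 TPM in 22RV1, 46 were lower and 40 higher by 2-fold or more. In each list below, the counts cover the members that reached 1 TPM and can be read against the share of all genes. That share is swelled by low genes. The 5th percentile of the log2 ratio was −1.02 below a mean of 5 TPM and −0.45 from 100 TPM upward. Abundant genes thus reached −0.5 less often than all genes.

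**Figure D1:**
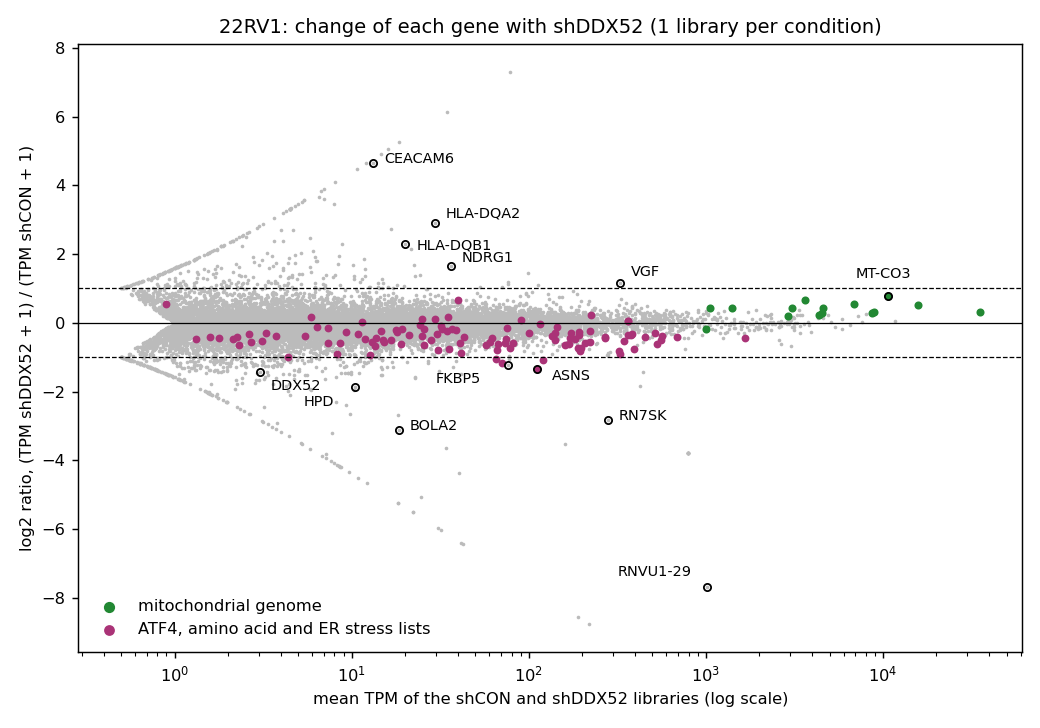
Log2 ratio of each of the 14438 genes (vertical axis, 0 means equal) against the mean TPM of the shCON and shDDX52 libraries of 22RV1 (horizontal, log scale), each dot 1 gene, dashed lines at 2-fold. The ATF4, amino acid and ER stress genes (purple) mostly lie below 0, with ASNS at −1.36, and the mitochondrially encoded genes (green) mostly lie above 0, with MT-CO3 at 0.77.

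The genes of the ATF4 and ER stress programmes were mostly lower with shDDX52. Joined, 5 such lists held 110 genes at 1 TPM or more, of which 99 were lower and 11 higher, with a median log2 ratio of −0.43. Of these, 42 (38.2%) had a log2 ratio of −0.5 or less, against 11.4% of all genes, and 2 had one of 0.5 or more. The lists were chosen with earlier results of these data known, so this contrast is a description only. The 4 genes lower by 2-fold or more were ASNS, MTHFD2, GDF15 and HERPUD1, and the other differences were moderate.

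In amino acid synthesis, 20 of 22 genes were lower (median −0.40). ASNS, asparagine synthetase and a classical ATF4 target, was at 161 TPM with shCON and 62.4 TPM with shDDX52, a log2 ratio of −1.36 and the lowest of the list. MTHFD2, the mitochondrial folate enzyme that uses serine-derived one-carbon units, was at 88.5 and 42.0 TPM (−1.06), and its neighbour in that pathway ALDH1L2 was at 11.1 and 5.48 TPM (−0.90). ASS1, which starts arginine synthesis from citrulline, was at 17.0 and 8.39 TPM (−0.94). These enzymes were the most different of the list, and they were all lower with shDDX52. The serine pathway was lower at each of its steps, with PHGDH at 518 and 389 TPM (−0.41), PSAT1 at 98.1 and 58.4 TPM (−0.74) and PSPH at 49.5 and 36.7 TPM (−0.42). ALDH18A1, which makes the proline precursor, was at 87.3 and 92.8 TPM (0.09), and it was 1 of the 2 members that were not lower.

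Among the ATF4 regulators and feedback genes, 19 of 22 were lower (median −0.44). ATF4 itself was at 783 and 593 TPM (−0.40), and its partner in stress DDIT3 (CHOP) at 44.9 and 25.9 TPM (−0.77). GDF15, a secreted stress cytokine, was at 98.5 and 43.5 TPM (−1.16), and CHAC1, which degrades glutathione, at 6.16 and 2.61 TPM (−0.99). NUPR1, a small stress-induced chromatin protein, was at 247 and 140.37 TPM (−0.81), and DDIT4, an inhibitor of mTORC1, at 53.9 and 28.8 TPM (−0.88). The list was not uniform. ATF5, an ATF4-like factor, was higher, at 30.7 and 49.4 TPM (0.67), and the phosphatase subunit PPP1R15A (GADD34), which ends the response by dephosphorylating eIF2α, was at 28.5 and 30.7 TPM (0.11).

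Amino acid transporters were lower in 12 of 14 (median −0.40). SLC1A5, the glutamine carrier, was at 245 and 148 TPM (−0.72), and SLC43A1, a carrier of branched amino acids that is also androgen-responsive, at 39.3 and 22.1 TPM (−0.80). SLC3A2, the heavy chain shared by several exchangers, was at 306 and 231 TPM (−0.40), and its partner SLC7A5 (LAT1) at 208 and 174 TPM (−0.26). SLC38A2, whose mRNA is known to be raised by amino acid shortage, went the other way at 32.9 and 37.0 TPM (0.17). Of the cytosolic aminoacyl-tRNA synthetases, which load amino acids onto tRNAs, 16 of 20 were lower (median −0.39). WARS1 was at 238 and 142 TPM (−0.74), GARS1 at 195 and 124 TPM (−0.65) and IARS1 at 70.9 and 44.6 TPM (−0.66), whereas VARS1 was at 208 and 243 TPM (0.22). The mitochondrial tRNA synthetases, which carry out the same reaction for mitochondrial translation, had a median of −0.09, near that of all genes, with 0 of 17 at −0.5 or less.

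The ER chaperone and UPR list was lower throughout. All 32 genes at 1 TPM or more had a log2 ratio below 0, with a median of −0.50, and 16 of them were at −0.5 or less. HERPUD1, which helps to remove misfolded proteins from the ER, was at 164 and 76.6 TPM (−1.09). PDIA4, a disulfide isomerase, was at 430.4 and 227 TPM (−0.92). HSPA5 (BiP), the main ER chaperone of the Hsp70 family, was at 414 and 235 TPM (−0.81), its co-chaperone DNAJB11 at 84.5 and 48.6 TPM (−0.78), and HSP90B1 at 490.25 and 292 TPM (−0.75). The stress sensors were lower too, at lower levels. ERN1 (IRE1) was at 3.05 and 1.57 TPM (−0.66) and ATF6 at 3.88 and 2.36 TPM (−0.54). XBP1, the mRNA that IRE1 splices, was at 97.7 and 64.8 TPM (−0.59), and splice forms cannot be told apart in gene-level values. DERL2, a channel for export of misfolded proteins, was nearest to 0 in this list, at 24.96 and 23.7 TPM (−0.07).

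**Figure D2:**
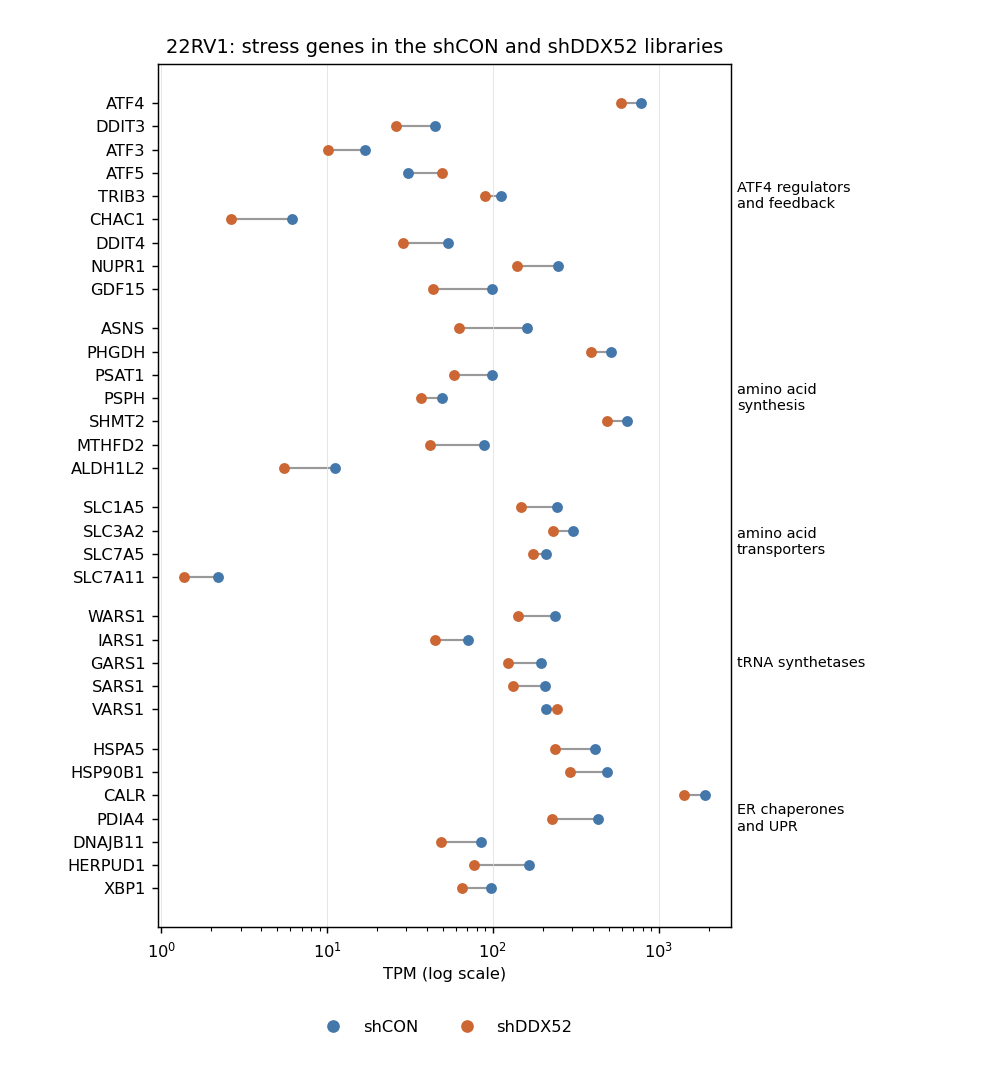
TPM (log scale) of 32 stress genes in the shCON (blue) and shDDX52 (orange) libraries of 22RV1, 1 library per condition, joined by a grey line. All are lower with shDDX52 except ATF5 (log2 ratio 0.67) and VARS1 (0.22).

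In PC3 most of these lists were not lower. There the median of the ATF4 list was 0.18, that of amino acid transporters 0.22, that of amino acid synthesis 0.04 and that of tRNA synthetases 0.03, and the ER list had a median of −0.12. The difference between the lines was not tested.

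Promoter sequences were searched for the elements through which these programmes are known to act. RefSeq promoter windows (GRCh38.p14), from 250 bases before to 50 bases after a transcript start, were searched on both strands for the C/EBP-ATF response element bound by ATF4 (TGATGNAAN), the ER stress response element (CCAAT, any 9 bases, CCACG) and the ER stress response element II (ATTGG, any base, CCACG), the latter pair bound by ATF6. The first was present in 4.45% of all 27305 genes with a window and in 2.4% of the 10215 of them used here. It was found for 6 of 13 amino acid transporters (46.2%), 7 of 16 tRNA synthetases (43.8%), 3 of 15 amino acid synthesis genes (20%) and 3 of 19 ATF4 regulators (15.8%). In the ER list it was found for 2 of 28 genes (7.14%), whereas the ER stress response element was found for 7 of 28 (25%) and element II for 3 of 28 (10.7%), each against 0.137% of genes used. Over all genes with a window, those shares were 0.0916% and 0.0696%. The lists were written from genes known for these programmes, so shares above those of all genes were likely beforehand. They cover whole lists, and their relation to the log2 ratios was not tested. Matches of different elements overlapped in 0 cases within these lists. The windows of 4 of the genes with lower TPM are shown because they carry these letters. Other genes with lower TPM had no match in their windows, among them MTHFD2, PSAT1, DDIT3, PDIA4 and DNAJB11. The capitals mark the matched element, on either strand. ASNS lies at chr7:97872359-97872658 on the minus strand and CHAC1 at chr15:40953221-40953520 on the plus strand, each with the C/EBP-ATF element. HERPUD1 lies at chr16:56931892-56932191 on the plus strand, with a C/EBP-ATF element followed by an ER stress response element II. HSPA5 lies at chr9:125241294-125241593 on the minus strand, with the ER stress response element.
ASNS: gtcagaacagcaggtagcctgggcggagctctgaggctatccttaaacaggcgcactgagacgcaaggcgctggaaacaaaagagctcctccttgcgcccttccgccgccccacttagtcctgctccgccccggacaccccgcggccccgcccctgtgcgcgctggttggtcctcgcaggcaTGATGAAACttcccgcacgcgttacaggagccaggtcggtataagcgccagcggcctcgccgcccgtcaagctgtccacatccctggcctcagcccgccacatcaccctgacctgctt
CHAC1: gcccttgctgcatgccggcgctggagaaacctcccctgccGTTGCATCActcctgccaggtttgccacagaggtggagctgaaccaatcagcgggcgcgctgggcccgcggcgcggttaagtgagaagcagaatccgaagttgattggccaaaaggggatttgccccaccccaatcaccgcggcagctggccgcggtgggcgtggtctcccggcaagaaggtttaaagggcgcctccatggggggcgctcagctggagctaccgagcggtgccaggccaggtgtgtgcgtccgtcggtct
HERPUD1: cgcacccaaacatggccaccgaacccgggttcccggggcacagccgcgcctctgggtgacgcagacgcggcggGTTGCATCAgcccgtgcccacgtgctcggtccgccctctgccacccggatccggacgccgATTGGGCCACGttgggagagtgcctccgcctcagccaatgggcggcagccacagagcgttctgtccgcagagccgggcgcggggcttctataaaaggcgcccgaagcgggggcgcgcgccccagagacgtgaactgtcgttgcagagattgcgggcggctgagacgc
HSPA5: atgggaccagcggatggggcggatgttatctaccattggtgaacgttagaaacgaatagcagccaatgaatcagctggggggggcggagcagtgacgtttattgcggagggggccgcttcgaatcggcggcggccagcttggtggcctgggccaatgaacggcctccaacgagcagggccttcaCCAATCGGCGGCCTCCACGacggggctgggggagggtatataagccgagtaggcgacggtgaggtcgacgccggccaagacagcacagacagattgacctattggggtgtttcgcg
A match describes the letters only; binding was not measured.

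Ribosome assembly genes, the pathway to which DDX52 belongs, had medians close to that of all genes. Of 56 small-subunit processome and 40S assembly genes, 42 were lower and 14 higher, with a median of −0.12, and 5 were at −0.5 or less (8.93%, against 11.4% of all genes). DDX52 was the lowest of them. WDR3, a scaffold of the processome, came next at 15.3 and 6.75 TPM (−1.08), followed by WDR75 at 17.7 and 10.2 TPM (−0.73). NAT10, which acetylates 18S rRNA, was at 43.5 and 61.2 TPM (0.48), the highest of the list. The 60S assembly genes had a median of −0.14, with 1 of 53 at −0.5 or less. Most assembly genes therefore differed little, and the low values were in a few members. In the RNA polymerase I list the median was −0.03, but TAF1B, a subunit of its promoter selectivity factor, was at 10.3 and 3.25 TPM (−1.41) and POLR1B, the second largest polymerase subunit, at 8.14 and 3.98 TPM (−0.88). NAF1, which assembles H/ACA small nucleolar particles, was at 34.9 and 10.7 TPM (−1.62) and was among the 15 lowest genes with at least 10 TPM. WDR3 was higher with shDDX52 in PC3 (log2 ratio 1.10), and NAF1 was at 6.46 and 8.23 TPM there. The 85 cytosolic ribosomal proteins had a median of −0.07, with none at −0.5 or less.

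The host genes of small nucleolar RNAs, transcripts whose introns hold the RNAs that guide rRNA modification, were lower in 19 of 22 (median −0.23, and −0.09 relative to genes alike in transcript length and GC content). GAS5 was at 497 and 321 TPM (−0.63), SNHG5 at 237 and 136 TPM (−0.79) and EPB41L4A-AS1 at 34.7 and 11.04 TPM (−1.57). Many of these transcripts begin with the pyrimidine tract typical of ribosomal protein mRNAs. Their median in PC3 was −0.22.

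Genes of the p53 pathway, which ribosome stress is known to engage, had a median of 0.11, with 15 of 26 higher and 11 lower. CDKN1A (p21), the cyclin-dependent kinase inhibitor, was at 109 and 186 TPM (0.76). BTG2, an antiproliferative deadenylase cofactor, was at 12.4 and 33.4 TPM (1.36), and CYFIP2 at 2.31 and 7.81 TPM (1.41). These 3 were higher by at least 0.5, as were ZMAT3, at 1.25 and 2.95 TPM (0.81), and RRM2B, at 2.23 and 4.3 TPM (0.71) (7.02% of all genes reached 0.5). Of other standard targets, MDM2 and BAX were higher by less, at 12.4 and 14.1 TPM (0.17) and at 119 and 149 TPM (0.33). For genes with a mean of 100 TPM or more, as BAX, the 95th percentile was 0.35. Below a mean of 5 TPM it was 0.93, so ZMAT3 and RRM2B lay within the spread of genes at their level. TIGAR was lower, at 3.09 and 0.82 TPM (−1.17). In PC3, a line without functional p53, the median was −0.04, with 12 of 25 higher. Whether p53 had a part in these differences was not tested.

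MYC, whose signalling the study asked about, was at 169 and 147 TPM (−0.20). Its network of partners and antagonists had a median of 0.11, and the antagonist MNT was at 12.3 and 19.6 TPM (0.63). MYC target enzymes and nucleolar genes were lower in 32 of 39, with a median of −0.16. TCP1, a subunit of the TRiC chaperonin, was the lowest, at 277 and 162 TPM (−0.77), while CAD, which starts pyrimidine synthesis, was at 66.7 and 76.6 TPM (0.20). When each log2 ratio was taken relative to genes alike in transcript length and GC content, the median of these targets was −0.0001. The study itself scored a published gene set in both cell lines and reported c-Myc-upregulated genes as most enriched with the control hairpin. The present list is a different set summarised by a median, so these results are not directly comparable.

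Cell cycle lists differed by small amounts. DNA replication genes were lower in 42 of 52 (median −0.22), with 2 at −0.5 or less. CDC6, a licensing factor for replication origins, was at 51.2 and 31.7 TPM (−0.68). Of 27 G1 and S phase regulators, 17 were lower and 10 higher (median −0.11). The lowest was CDC25A, the phosphatase that opens S phase, at 21.1 and 11.9 TPM (−0.77). The list of mitosis genes had a median of −0.07, close to that of all genes. Within it the checkpoint kinase TTK was at 8.17 and 4.02 TPM (−0.87) and the kinetochore protein SPC25 at 17.3 and 9.49 TPM (−0.80), while AURKB was at 129 and 172 TPM (0.41). MKI67, the usual marker of cycling cells, was at 46.4 and 42.7 TPM (−0.12, and 0.04 relative to genes alike in length and GC content).

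**Figure D3:**
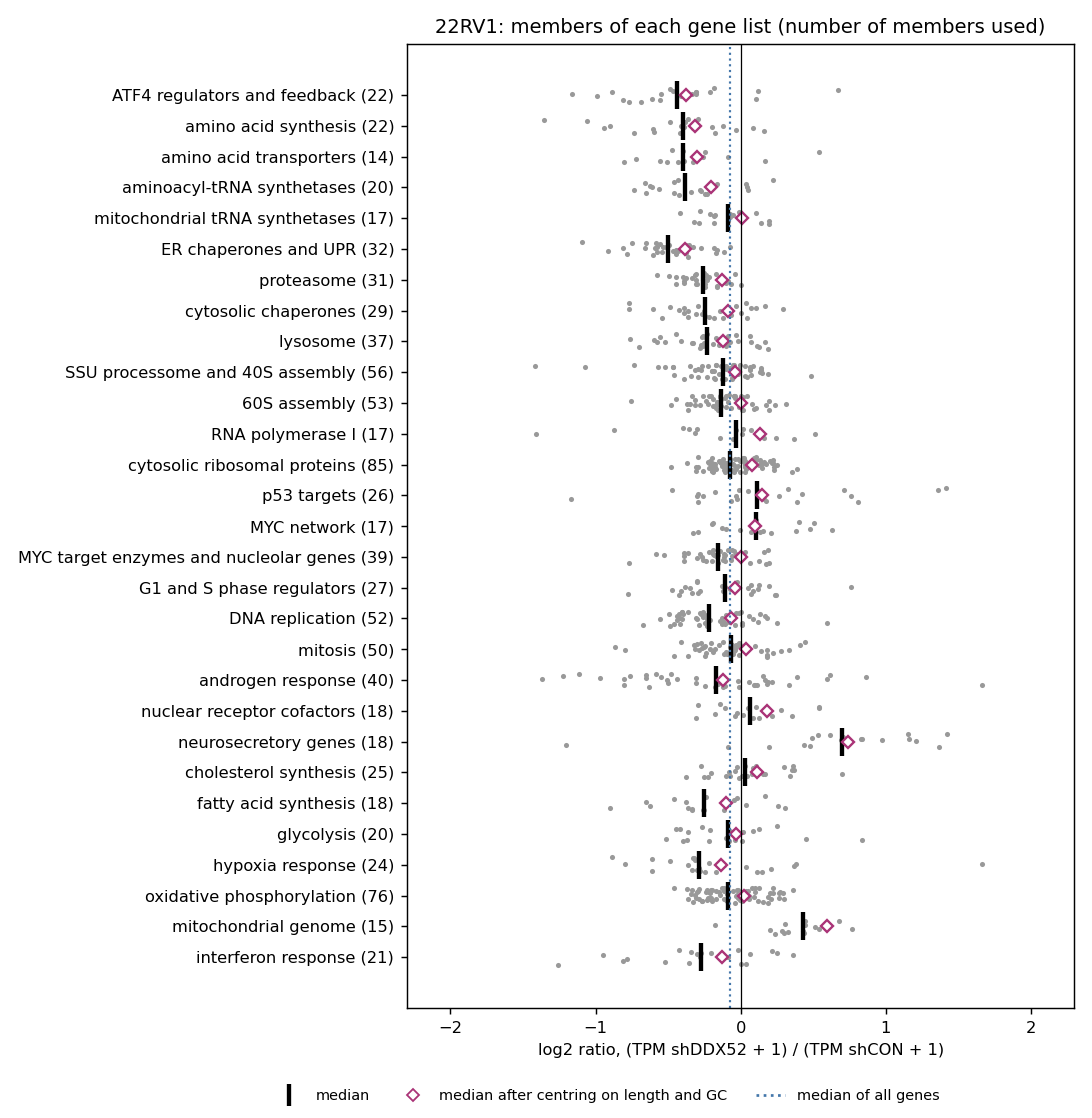
Log2 ratio of each member (grey dots) of 29 gene lists in 22RV1, with the number of members used in brackets, the median (black bar) and the median relative to genes alike in length and GC content (purple diamond). Among the lists drawn, the ER, ATF4 and amino acid lists lie furthest left (medians −0.50 to −0.39). The neurosecretory list, assembled after the values were seen, and the mitochondrial genome list lie furthest right (0.70 and 0.43). Some lists not drawn had medians further out, among them small structured RNAs (−3.94), liver-type secreted proteins (−0.78) and MHC class II (2.10).

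The androgen programme split. Of its 40 genes at 1 TPM or more, 25 were lower and 15 higher (median −0.17), with 14 at −0.5 or less (35.0%, against 11.4% of all genes) and 4 at 0.5 or more, and 8 further listed genes stayed under 1 TPM. The prostate lineage factors FOXA1 and HOXB13 were at 101 and 110.25 TPM (0.13) and at 89.9 and 105 TPM (0.22). FKBP5, the co-chaperone of steroid receptors and a strong androgen target, was at 108 and 45.7 TPM (−1.22). STEAP1, a metalloreductase of the prostate cell surface, was at 53.3 and 24.1 TPM (−1.11), and HPGD, which degrades prostaglandins, at 20.05 and 11.1 TPM (−0.80). The kallikreins did not share a direction. KLK3, which encodes PSA, was at 6.84 and 4.51 TPM (−0.51) and KLK2 at 32.6 and 23.1 TPM (−0.48), but KLK4 was at 329 and 415 TPM (0.33). NDRG1, which androgen, hypoxia and other stresses all raise, was the highest, at 16.8 and 55.5 TPM (1.66), and it was also higher in PC3 (0.96). PLPP1, a lipid phosphatase, was at 36.1 and 66.5 TPM (0.86) and TPD52, a vesicle-trafficking protein, at 19.1 and 29.4 TPM (0.60). TMPRSS2, the protease gene that drives the common ETS fusions, was at 4.82 and 4.35 TPM (−0.12). Among members with at least 20 TPM the median of this list was −0.01. Cofactors of nuclear receptors had a median of 0.07, with GATA2 at 116.1 and 169 TPM (0.54) and the acetyltransferase CREBBP at 8.24 and 12.5 TPM (0.54).

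A set of neurosecretory genes, assembled after the values were seen, stood higher. Of 18 members at 1 TPM or more, 16 were higher and 2 lower (median 0.70), and 12 reached 0.5, while 10 further members stayed under 1 TPM. VGF, a granule protein precursor, was at 204 and 455 TPM (1.15) and the synaptic vesicle protein SYP at 19.7 and 35.6 TPM (0.83). STX1A, a SNARE protein of exocytosis, was at 17.5 and 35.3 TPM (0.98), VAMP2 at 49.0 and 80.3 TPM (0.70), and the intermediate filament gene PRPH at 6.24 and 17.7 TPM (1.37). Of 6 neuroendocrine markers examined, the 2 that reached 1 TPM were SYP and ENO2, a neuronal enolase at 65.2 and 89.5 TPM (0.45), and the 6 summed to 84.9 and 126 TPM. The other markers stayed under 1 TPM, with NCAM1 and INSM1 listed at 0 in both libraries and CHGA at 0 and 0.16 TPM. NPTX2, a synaptic pentraxin, went the other way, at 5.74 and 1.92 TPM (−1.21), and its relative NPTX1 was at 1.83 and 5.53 TPM (1.21).

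**Figure D4:**
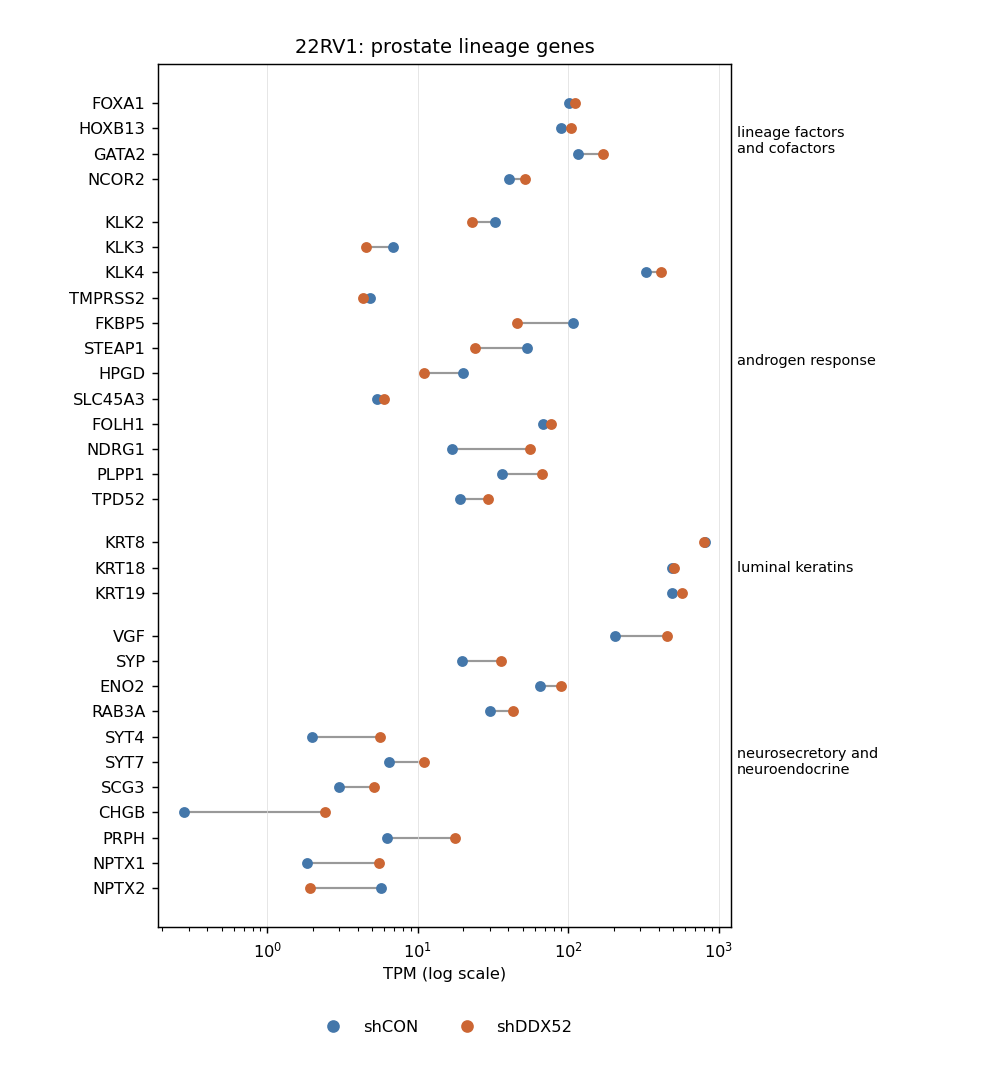
TPM (log scale) of 30 prostate lineage and neurosecretory genes in the shCON (blue) and shDDX52 (orange) libraries of 22RV1, 1 library per condition. The values of KRT8 and KRT18 nearly coincide, FKBP5, STEAP1 and HPGD are lower with shDDX52, and all the neurosecretory genes drawn except NPTX2 are higher.

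Of 19 epithelial and mesenchymal genes at 1 TPM or more, 8 were lower and 11 higher (median 0.10), with 2 at −0.5 or less and 5 at 0.5 or more. The tight junction claudins CLDN3 and CLDN4 were higher, at 34.1 and 72.0 TPM (1.06) and at 46.4 and 106 TPM (1.18). The mesenchymal genes FN1 and SNAI2 were lower, at 52.4 and 28.7 TPM (−0.85) and at 12.6 and 7.12 TPM (−0.75). They were the only members at −0.5 or less. The mesenchymal members CDH2, VIM and TWIST1, also at 1 TPM or more, did not reach −0.5, and SNAI1, ZEB1 and ZEB2 stayed under 1 TPM. CD44, a hyaluronan receptor outside that list, was at 17.1 and 7.01 TPM (−1.17). E-cadherin (CDH1) was at 97.9 and 112 TPM (0.19). In the YAP and actin list, where 14 genes were lower and 17 higher, ITGB1 was at 26.1 and 12.6 TPM, or 48.2% of the control, and CNN3 at 37.8 and 16.2 TPM (−1.18). VCL, the vinculin that serves as a protein loading control, was at 27.0 and 18.7 TPM (−0.51), and GAPDH at 6696 and 6378 TPM (−0.07).

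Protein turnover genes were mostly lower, by less. All 31 proteasome genes had a log2 ratio below 0, with a median of −0.26 and 1 at −0.5 or less, and the median in PC3 was also −0.25. The cytosolic chaperones had a median of −0.25, with TCP1 lowest and HSPA8, the constitutive Hsp70, next to it at 967 and 567 TPM (−0.77). Lysosomal genes were lower in 31 of 37 (median −0.23), with the protease CTSL at 71.4 and 41.7 TPM (−0.76). Relative to genes alike in transcript length and GC content, the medians were −0.125 for lysosomal genes and −0.09 for cytosolic chaperones. NRF2 response genes had a median of −0.18, with 16 lower and 8 higher and 12.5% at −0.5 or less, against 11.4% of all genes, abundant or not. Among its lower members, the iron store FTH1 was at 3213 and 2113 TPM (−0.60), and NQO1, a quinone reductase and NRF2 target, at 182 and 113 TPM (−0.68). Lipid genes were mixed. Cholesterol synthesis had a median of 0.03, although DHCR7, its last enzyme, was at 99.7 and 162 TPM (0.70), and fatty acid synthesis one of −0.26, with ACSL1 at 12.9 and 6.46 TPM (−0.90) but FASN at 292 and 350 TPM (0.26). Hypoxia genes had a median of −0.28 in 22RV1 and 0.36 in PC3.

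Antigen presentation genes differed in direction. B2M, the light chain of class I molecules, was at 248 and 157 TPM (−0.65), and interferon genes were lower in 15 of 21, with the RNase ISG20 at 13.6 and 5.08 TPM (−1.26) and ISG15 at 409 and 428 TPM (0.06). Of 5 class II genes at 1 TPM or more, in a list added after the values were seen, 4 were higher, and 10 further ones stayed under 1 TPM. The class II genes HLA-DQA2, HLA-DQB1 and HLA-DQB2 were among the 15 highest genes with at least 10 TPM, at 6.25 and 52.9 TPM (2.89), at 6.14 and 34.1 TPM (2.3) and at 1.67 and 10.4 TPM (2.10). HLA-DMA and HLA-DMB were the other class II genes at 1 TPM or more. Of this pair, 1 was higher, by at least 0.5 but under 2-fold, and the other was lower (−0.47). Much of the pathway was not detected at that level, since HLA-DRA, CD74 and the class II activator CIITA stayed under 1 TPM in both libraries. The HLA-DQ genes are closely related, so reads may have been divided among them in a way the gene-level values do not show.

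The other genes with the largest differences were not from 1 pathway. CEACAM6, a surface adhesion molecule of epithelia, was highest, at 0.09 and 26.5 TPM (4.65), while its relative CEACAM5 stayed under 1 TPM. EYS, a retinal matrix gene, was at 0.22 and 13.8 TPM (3.60), CNGA4, an olfactory channel subunit, at 3.62 and 29.7 TPM (2.73), and CDK10 at 52.2 and 145 TPM (1.46). The growth factor binding proteins IGFBP3 and IGFBP2 were at 71.4 and 154 TPM (1.10) and at 92.2 and 165 TPM (0.83). On the low side, BOLA2 was at 33.8 and 3.03 TPM (−3.11), but BOLA2B, its near-identical copy, was at 414 and 492 TPM (0.25), so the share between the copies is uncertain. EXOG, a mitochondrial nuclease, was at 17.0 and 3.63 TPM (−1.96), and the oxidoreductase DHRS2 at 22.4 and 7.14 TPM (−1.52). The calcium-binding proteins S100A6 and S100P were at 62.0 and 21.3 TPM (−1.50) and at 14.5 and 4.64 TPM (−1.45), and they were lower in PC3 as well (−1.02 and −1.83). Of 8 S100 genes, listed after the values were seen, 5 were lower and 3 higher. HPD, an enzyme of tyrosine breakdown, was at 16.9 and 3.87 TPM (−1.88), and several other genes best known from liver were lower beside it, with APOA5 at 13.5 and 5.09 TPM (−1.26) and ALB at 55.2 and 34.4 TPM (−0.67), although TTR was at 0.44 and 2.87 TPM (1.43). The list of such genes was added after the values were seen. Of its 10 members at 1 TPM or more, 8 were lower (median −0.78), and 12 further ones stayed under 1 TPM.

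Mitochondrially encoded genes were higher, in 14 of 15 (median 0.43), and held 9.81% of the TPM with shCON and 12.99% with shDDX52. MT-CO3, a subunit of cytochrome oxidase, was at 7936 and 13513 TPM (0.77). Only the small ribosomal RNA MT-RNR1 was lower, at 1060 and 937 TPM (−0.18). The nuclear genes of oxidative phosphorylation had a median of −0.09, and 0 of 76 were at −0.5 or less.

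Features of the libraries moved with these differences. Genes annotated as rRNA held 1.21% and 0.0872% of the TPM. In a list of small structured RNAs added after the values were seen, 10 of 10 were lower (median −3.94). Among them were RN7SK at 493 and 69.1 TPM (−2.82) and the U1 gene RNVU1-29 at 2037 and 8.94 TPM (−7.68). The median of this list in PC3 was 4.40. Whole annotated classes of small RNA did not share a direction. Of 31 small nuclear RNA genes, 13 were lower and 13 higher by 2-fold or more (median −0.15), although their sum was 3781 and 295 TPM. Of 17 small nucleolar RNA genes, 11 were lower and 4 higher by as much. Of 58 genes annotated as miscellaneous RNA, 19 were lower and 28 higher by as much (median 0.90). The log2 ratio also followed GC content, with a Spearman rho of 0.35 across 11950 protein-coding genes, which share the same 2 libraries and are not independent. The median log2 ratio was −0.21 in the fourth of 10 groups by GC content and 0.15 in the tenth. Relative to genes alike in transcript length and GC content, the medians were −0.38 for the ER list, −0.37 for ATF4 regulators, −0.32 for amino acid synthesis, −0.30 for transporters, −0.21 for tRNA synthetases, −0.12 for the androgen list, −0.13 for the proteasome and 0.74 for neurosecretory genes. Medians of 60S assembly, DNA replication and mitosis genes became 0.0004, −0.07 and 0.03. Those of RNA polymerase I, cytosolic ribosomal protein and oxidative phosphorylation genes turned positive, at 0.14, 0.08 and 0.02. The part of GC content and of RNA composition in single differences was not tested.

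**Figure D5:**
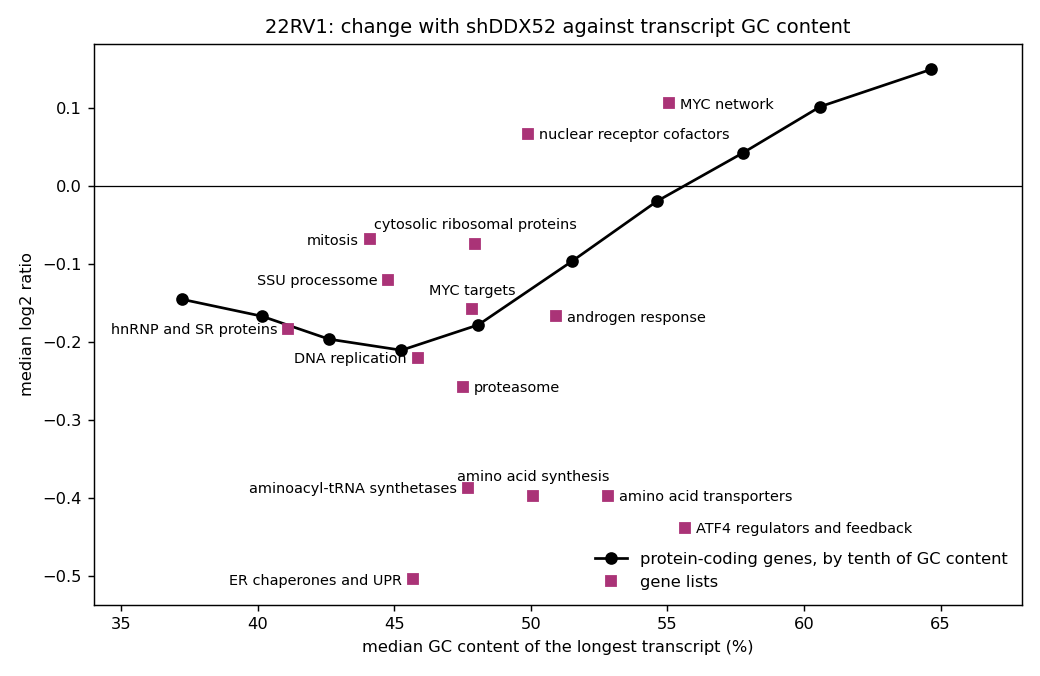
Median log2 ratio against median transcript GC content (percent) for 10 equal groups of protein-coding genes (black line) and for 15 gene lists (purple squares) in 22RV1. DNA replication (−0.22) lies near the line, whereas the ER list (−0.50), the ATF4 list (−0.44) and the amino acid lists (−0.40) lie below it.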

How the data were processed

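RNA was sequenced from 22RV1 cells and from PC3 cells, with shCON and with shDDX52, giving 4 libraries. The authors deposited TPM values per Ensembl gene. Per the labels, the submitters' processing notes name CASAVA, HISAT2 and hg19, and the quantification program and annotation are not given in the sources used here. TPM keeps no sequencing depth, so depth and the precision of single values are unknown, and no interval was computed.

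Log2 ratios used a pseudocount of 1 and a minimum of 1 TPM in either 22RV1 library. Gene types, lengths and GC content came from GENCODE 29, which listed 14318 of the 14438 genes. For centring, the median of each of 10 GC by 5 length groups was subtracted. Of 51 gene lists, written from memory or by symbol pattern, 6 symbols found no identifier. The members and lists were chosen with earlier results of these data known, and 5 lists (neurosecretory genes, MHC class II, liver-type secreted proteins, S100 proteins, small structured RNAs) were added after seeing the values. Genes named were a fixed set of controls and prostate genes, the 15 lowest and 15 highest protein-coding genes with at least 10 TPM, the 3 lowest and 3 highest members of each list with at least 5 TPM and any defining member, and the 5 genes losing and the 5 gaining most TPM. Other named genes were chosen after their values were seen, and some genes covered by the rule are left out here. Promoter windows came from RefSeq. The procedure was tested on simulated data. Other pseudocounts, filters, scalings and a centring were tried. The work used Python 3.11.15 with pandas 2.3.3, numpy 2.4.6, scipy 1.17.1 and matplotlib 3.10.9.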

Additional observations from a re-analysis of the deposited data

Results flagged for a closer look

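Several values had opposite signs in 22RV1 and PC3, each line with 1 library per condition, and none of these differences was tested. List medians (22RV1, then PC3) were −0.17 and 0.27 for androgen response, −0.11 and 0.11 for G1 and S phase regulators, −0.44 and 0.18 for ATF4 regulators and feedback, −0.40 and 0.22 for amino acid transporters, −0.28 and 0.36 for hypoxia response, −0.11 and 0.23 for replication-dependent histones, and −3.94 and 4.40 for small structured RNAs. Among single genes, WDR3 had log2 ratios of −1.08 and 1.10, LRCH3 (a leucine-rich repeat protein) of −1.53 and 1.83, H4C12 (a histone H4 gene) of 3.46 and −1.27, and CNN3 of −1.18 and 1.07.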

How the results depend on the processing

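No paired analysis was possible because a condition was sequenced only once, and no replicate could be left out. A median or log2 ratio was taken as unmoved when it shifted by less than 0.1, and a count when it stayed within 1.5 times. Of 1000 alternative values for 120 results, 797 were unmoved. In all, 37 had the opposite sign, 30 of them for values reported at under 0.1 in size, and 13 of the 37 came with centring on length and GC content. With a pseudocount of 0.1, 786 genes were at least 2-fold lower and 579 higher, DDX52 was −1.94 and the ATF4 list −0.54. With a pseudocount of 5 the counts were 90 and 68, DDX52 was −0.67, and the medians were −0.23 for transporters, −0.40 for the ER list and 0.48 for neurosecretory genes. With at least 5 TPM the counts were 169 and 131, and the medians of histones (0.0614) and chromosome 19 zinc finger genes (0.004) turned positive. Without a filter the neurosecretory median was 0.46. Over nuclear protein-coding genes the counts were 181 and 147. Centring on length and GC content gave −1.26 for DDX52, 0.0004 for 60S assembly, −0.0001 for MYC targets, −0.070 for DNA replication, 0.033 for mitosis, −0.21 for tRNA synthetases, −0.38 for the ER list, 0.59 for the mitochondrial genome, −0.13 for the proteasome and 0.0072 for zinc finger genes, with 318 genes at least 2-fold lower and 347 higher. After seeing the data, counts of protein-coding genes only (161 and 119) were added, and members with at least 20 TPM gave −0.015 for the androgen list, 0.068 for histones and 0.18 for zinc finger genes. Apart from what each setting changes by construction, the cause was not tested. The median of all genes was −0.02 when mitochondrially encoded genes and the 20 most abundant genes were left out of the scaling.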
